A study of Homo sapiens with 8 samples.

Results

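The 9 enzymes described here make serine from a glycolytic intermediate and pass its carbon on to folate. They were chosen by name, as the rows of the deposited gene table whose symbol is PHGDH, PSAT1, PSPH, SHMT1, SHMT2, MTHFD1, MTHFD2, MTHFD1L or ALDH1L2, 9 of 60754 listed genes and spike-in sequences. The choice was made with earlier results of these data known. RNA was sequenced from 8 libraries of SEM, a human cell line from B-cell acute lymphoblastic leukemia with a KMT2A rearrangement, as 2 libraries in each of 4 groups. All groups were CTCF-AID2 knock-in cells, in which both alleles of CTCF carry a miniAID-mClover3 degron tag. A lentiviral cassette in these cells expresses the F74G mutant of the auxin receptor OsTIR1 and Zeocin resistance from the MND promoter. C17.2 and C3.2 are single-cell clones, so each stands for 1 line. Parental cells received no treatment. Resistant cells were kept for 36 days in 1 μM of the auxin analog 5-Ph-IAA with 100 μg/ml Zeocin, and were then taken off treatment for 48 h. Resistant cells of C17.2 carry a nonsense mutation that gives a truncated CTCF without the tag, and off treatment they also hold the tagged protein. Those of C3.2 carry a missense mutation in the tag of full-length CTCF. The labels do not say whether the 2 libraries of a group came from separate cultures, so the p-values measure the spread between libraries, which may be technical.

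Serine is made from 3-phosphoglycerate by the dehydrogenase PHGDH, the aminotransferase PSAT1 and the phosphatase PSPH. A serine hydroxymethyltransferase, SHMT2 in mitochondria or SHMT1 in the cytosol, then cleaves serine to glycine and loads the freed carbon onto tetrahydrofolate. In mitochondria MTHFD2 oxidises the loaded folate, MTHFD1L releases the carbon as formate, and ALDH1L2 can burn it to carbon dioxide. In the cytosol the trifunctional MTHFD1 takes formate up again and feeds purine, thymidylate and methionine synthesis. Proliferating lymphoid cells are known to use the mitochondrial arm as a source of formate, and the transcription factor ATF4, which cells make when amino acids run short, is a known activator of several of these genes.

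In resistant cells, RNA of all 3 serine synthesis enzymes and of 3 of the 4 mitochondrial folate enzymes was lower than in parental cells of the same clone, in both clones. The falls were to between 19.5% and 33.5% of the parental level in C17.2 and to between 53.7% and 78.4% in C3.2, on TPM scaled between libraries. The cytosolic enzymes SHMT1 and MTHFD1 did not pass the test in either clone, and ALDH1L2 was listed at 0.11 TPM or less in every library. Of the 9 enzymes, 8 reached 1 TPM (a share of all transcripts corrected for their length) in at least 1 library and were tested among 15614 such genes. In C17.2, 6 of the 8 tested enzymes were lower and 0 were higher in resistant cells, where 14.2% of all tested genes were lower and 27.2% changed in either direction. In C3.2, 6 of 8 were lower and 0 higher, beside 6.76% of all tested genes lower and 11.3% changed in either direction. Because the enzymes were chosen with earlier results of these data known, these counts and shares are a description only. The C3.2 call of PSPH was lost under 13 of 16 alternative ways of processing. When C3.2 was fitted alone, only PSAT1 and MTHFD2 stayed called. The adjusted p in limma was then 0.0602 for PHGDH, 0.0694 for SHMT2 and 0.098 for MTHFD1L. The median log2 fold change of the 8 enzymes was -1.59 in C17.2 and -0.44 in C3.2, and the medians of all tested genes were -0.0037 and 0. Changes passed at an adjusted p of 0.05 in limma, with Benjamini-Hochberg adjustment over all tested genes.

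Every library had the RNA of a B-lineage cell. Of the B-lineage markers, CD79A lay between 92.15 and 174.91 TPM, PAX5 between 116.18 and 193.4 TPM, EBF1 between 94.44 and 120.62 TPM and VPREB1 between 77.77 and 122.21 TPM over the 8 libraries. CD79B was lower, at 12.17 to 15.33 TPM in parental and 4.33 to 7.49 TPM in resistant libraries, and its part in the results was not tested. The 3 T-cell markers summed to at most 0.25 TPM, with CD3D listed at 0 in all 8 libraries, and the 4 erythroid markers to at most 0.43 TPM. Of the 4 myeloid markers 1, LYZ, reached 1 TPM, and their sum was 1.12 to 1.45 TPM in parental and 1.78 to 4.07 TPM in resistant cells of C17.2. In C3.2 the myeloid sum was 0.74 to 1.09 TPM in parental and 2.12 to 2.38 TPM in resistant cells, and its part in the results below was not tested. In bulk RNA, fewer cells that express a gene and less RNA per cell cannot be told apart.

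RefSeq promoter windows on GRCh38.p14 were at hand for 6 of the 9 enzymes, namely PHGDH, PSAT1, SHMT1, MTHFD1, MTHFD2 and MTHFD1L. They are shown because 4 of these genes fell together and the other two did not. Both strands of the 250 bases before the start were searched for the letters CCAAT (the CCAAT box), CACGTG (the E box that MYC family proteins bind) and TGATGNAA (the core of the C/EBP-ATF response element that ATF4 binds), none of which contains another. These windows overlap annotated exons of some transcript over 250 of 250 bases in MTHFD1, 201 in MTHFD2, 197 in PHGDH, 55 in MTHFD1L, 13 in SHMT1 and 0 in PSAT1. The window before the first start held CCAAT in each of the 6 genes, and for MTHFD1L, which has 4 RefSeq starts, 3 of 4 windows held it. Of 27305 promoter windows of this length, taking the first listed for each gene symbol, 33.0% held it. The window of PSAT1, at chr9:78296875-78297124 on the plus strand, held 3 copies, shown in capitals.
PSAT1: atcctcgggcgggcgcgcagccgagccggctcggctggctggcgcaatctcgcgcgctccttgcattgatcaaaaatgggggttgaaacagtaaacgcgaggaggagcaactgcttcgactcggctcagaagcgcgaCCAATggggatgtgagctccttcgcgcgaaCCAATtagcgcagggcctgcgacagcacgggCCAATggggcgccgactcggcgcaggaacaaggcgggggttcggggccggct
PHGDH (chr1:119711851-119711880, plus strand) and MTHFD2 (chr2:74198529-74198558, plus strand) also fell, and 30 bases around their copy nearest the start are given with CCAAT in capitals.
PHGDH: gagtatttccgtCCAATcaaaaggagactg
MTHFD2: atgcggcagggaCCAATgggtggcggaggg
In SHMT1 (chr17:18363558-18363587, read on the minus strand) the copy nearest the start lies on the other strand, so its letters are ATTGG.
SHMT1: ctgcgctctctgATTGGgcgcctccggggg
TGATGNAA was found in 1 of the 6 genes, MTHFD1L, 129 bases before the first of its 4 RefSeq starts (chr6:150866346-150866375, plus strand). Of those 27305 windows, 3.19% held it. For MTHFD1L, the windows of starts 1 and 3 held both TGATGNAA and CACGTG, and those of starts 2 and 4 held neither.
MTHFD1L: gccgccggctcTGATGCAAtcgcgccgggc
CACGTG was found in 2 of the 6, beside 6.49% of those 27305 windows. It lay 154 bases before the first start of MTHFD1L (chr6:150866320-150866349, plus strand) and 15 bases before that of MTHFD1 (chr14:64388323-64388352, plus strand).
MTHFD1L: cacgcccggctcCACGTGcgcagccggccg
MTHFD1: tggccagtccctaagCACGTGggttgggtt
CCAAT and CACGTG were found before genes that fell and before genes that did not pass the test, and TGATGNAA before 1 gene that fell. The part of any of these letters in the changes was not tested. These are matches of letters, and binding at them was not measured here.

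PHGDH (ENSG00000092621.12, chromosome 1 of GRCh38, 119648411 to 119744218) catalyses the first and committed step of serine synthesis and was the most abundant of the 9 RNAs in all 8 libraries. Its level in C17.2 was 277.95 and 271.36 TPM in the parental libraries and 83.39 and 79.34 TPM after resistance. The C3.2 values were 113.11 and 123.62 TPM in parental and 72.62 and 75.35 TPM in resistant libraries. The resistant libraries lay below the parental libraries in both clones, with no overlap. Groups of 2 libraries can lie apart by chance, and the share of all genes without overlap was not counted, here and below. PHGDH changed by a log2 value of -1.91 in C17.2 (95% confidence interval -2.06 to -1.76, adjusted p = 1.99e-05 in limma) and -0.73 in C3.2 (-0.89 to -0.58, adjusted p = 0.00221).

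PSAT1 (ENSG00000135069.14, chromosome 9, 78297125 to 78330093) transfers the amino group of glutamate to the product of PHGDH. It fell by the largest log2 value of the serine synthesis enzymes in each clone. Its level was 164.23 and 153.4 TPM in parental and 38.97 and 39.69 TPM in resistant libraries of C17.2. In C3.2 the parental libraries had 58.22 and 62.38 TPM and the resistant libraries 33.79 and 33.78 TPM. The groups did not overlap in either clone. PSAT1 changed by a log2 value of -2.15 in C17.2 (-2.25 to -2.05, adjusted p = 6.18e-06 in limma) and -0.88 in C3.2 (-0.98 to -0.78, adjusted p = 0.000303).

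PSPH (ENSG00000146733.14, chromosome 7, 56011051 to 56051604, reverse strand), whose product releases free serine in the last step, was the least abundant of the 3. It had 42.96 and 38.03 TPM in parental and 13.79 and 15.31 TPM in resistant libraries of C17.2, which were well apart. C3.2 had 17.8 and 20.54 TPM in parental and 15.93 and 15.44 TPM in resistant libraries, which did not overlap but came within a few TPM of each other. The log2 fold change was -1.57 in C17.2 (-1.74 to -1.40, adjusted p = 5.3e-05 in limma). In C3.2 it was -0.33 (-0.50 to -0.16, adjusted p = 0.0315), and that call was lost under 13 of 16 alternatives, among them each of the 8 fits without 1 library, with adjusted p up to 0.138.

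**Figure D1:**
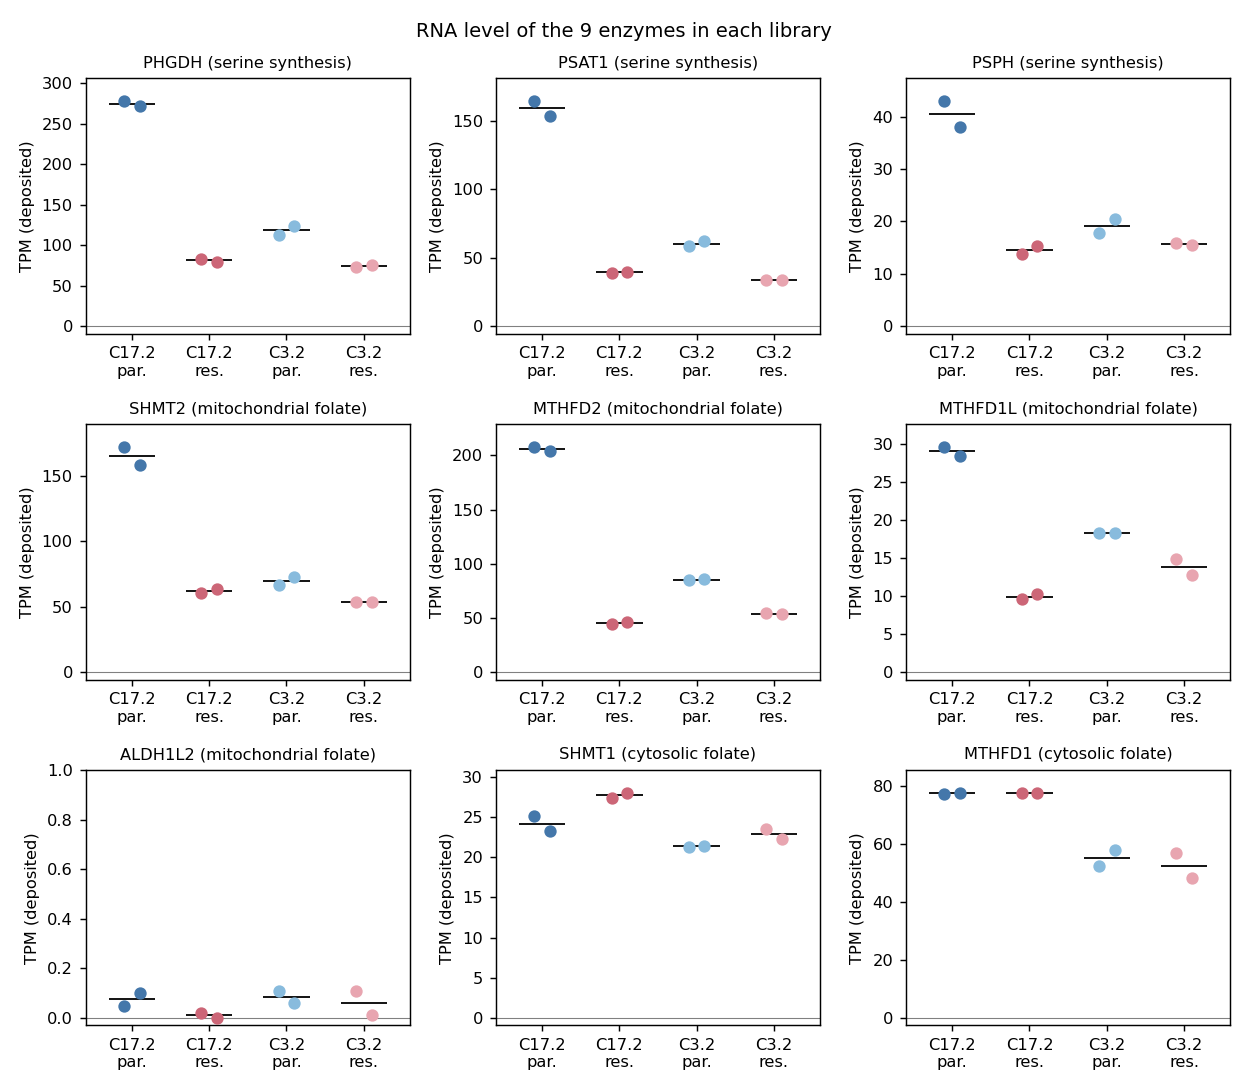
RNA level of each of the 9 enzymes in deposited TPM (y axis, own scale for each panel) in parental (par.) and resistant (res.) libraries of C17.2 and C3.2 (x axis); points are libraries and lines are means of 2. The panels of 6 enzymes drop from parental to resistant in both clones (PHGDH from 277.95 and 271.36 to 83.39 and 79.34 TPM in C17.2), ALDH1L2 lies at 0.11 TPM or less on an axis drawn to 1 TPM, and SHMT1 and MTHFD1 show no such drop.

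SHMT2 (ENSG00000182199.11, chromosome 12, 57229573 to 57234935), the mitochondrial serine hydroxymethyltransferase, was close to PSAT1 in TPM in parental libraries and above it in resistant libraries. Its level was 172.16 and 158.05 TPM in parental and 60.76 and 63.41 TPM in resistant libraries of C17.2, and 66.96 and 72.59 TPM against 53.66 and 53.45 TPM in C3.2. Resistant libraries were lower without overlap in both clones. The log2 fold change was -1.56 in C17.2 (-1.67 to -1.45, adjusted p = 1.27e-05 in limma) and -0.44 in C3.2 (-0.55 to -0.33, adjusted p = 0.00393).

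MTHFD2 (ENSG00000065911.12, chromosome 2, 74186172 to 74217565), the mitochondrial methylenetetrahydrofolate dehydrogenase and cyclohydrolase, had the largest fall of the 9 enzymes in C17.2. Its level there was 207.89 and 203.74 TPM in parental and 44.63 and 45.83 TPM in resistant libraries. Its C3.2 level was 84.66 and 86.11 TPM in parental and 54.21 and 53.72 TPM in resistant libraries. Within each group the libraries differed by a few TPM, and the groups were far apart in both clones. MTHFD2 changed by a log2 value of -2.33 in C17.2 (-2.43 to -2.23, adjusted p = 6.18e-06 in limma) and -0.72 in C3.2 (-0.82 to -0.61, adjusted p = 0.000538).

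MTHFD1L (ENSG00000120254.15, chromosome 6, 150865679 to 151101887), the mitochondrial formyltetrahydrofolate synthetase that releases formate, was the least abundant of the tested mitochondrial enzymes. It had 29.61 and 28.43 TPM in parental and 9.56 and 10.23 TPM in resistant libraries of C17.2, and 18.23 and 18.29 TPM against 14.9 and 12.72 TPM in C3.2. Resistant libraries were lower without overlap in both clones. MTHFD1L changed by a log2 value of -1.61 in C17.2 (-1.76 to -1.47, adjusted p = 3.15e-05 in limma) and -0.44 in C3.2 (-0.59 to -0.30, adjusted p = 0.00915). Without C3.2 parental replicate 1 or 2 the latter did not pass (adjusted p = 0.0803 and 0.0614).

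ALDH1L2 (ENSG00000136010.14, chromosome 12, 105019784 to 105107643, reverse strand), the mitochondrial formyltetrahydrofolate dehydrogenase, was near 0 throughout. It was listed at 0.05 and 0.1 TPM in parental and 0.02 and 0 TPM in resistant libraries of C17.2, and at 0.11 and 0.06 TPM against 0.11 and 0.01 TPM in C3.2. The groups overlapped in C3.2, and no library reached the 1 TPM needed for a test. Its cytosolic counterpart ALDH1L1 was listed at 0 in all 8 libraries, so no ratio between them could be formed.

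The cytosolic enzymes stayed close to their parental levels. SHMT1 (ENSG00000176974.20, chromosome 17, 18327860 to 18363563, reverse strand) had 25.16 and 23.22 TPM in parental and 27.41 and 28.04 TPM in resistant libraries of C17.2, and 21.32 and 21.43 TPM against 23.56 and 22.24 TPM in C3.2. The deposited values of the resistant libraries thus lay slightly above the parental ones, and after scaling between libraries they differed by less than 1 TPM. The log2 fold change on scaled values was 0.03 in C17.2 (-0.07 to 0.13, adjusted p = 0.662 in limma) and 0.03 in C3.2 (-0.06 to 0.13, adjusted p = 0.642). On TPM as deposited it was 0.19 in C17.2 (adjusted p = 0.0556).

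MTHFD1 (ENSG00000100714.17, chromosome 14, 64388031 to 64463457), the cytosolic trifunctional enzyme, had 77.36 and 77.73 TPM in parental and 77.75 and 77.8 TPM in resistant libraries of C17.2, which were level. C3.2 had 52.45 and 57.96 TPM in parental and 56.83 and 48.22 TPM in resistant libraries, which overlapped. The log2 fold change on scaled values was -0.16 in C17.2 (-0.33 to 0.0044, adjusted p = 0.135 in limma) and 0.0042 on TPM as deposited, so its sign depends on the scaling. In C3.2 it was -0.14 (-0.30 to 0.03, adjusted p = 0.261). The intervals of SHMT1 and MTHFD1 leave room for small changes in either clone but lie wholly above those of the 6 enzymes that fell in C17.2. In C3.2 the interval of MTHFD1 (-0.303 to 0.031) overlapped those of PSPH (-0.499 to -0.164) and MTHFD1L (-0.592 to -0.298).

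**Figure D2:**
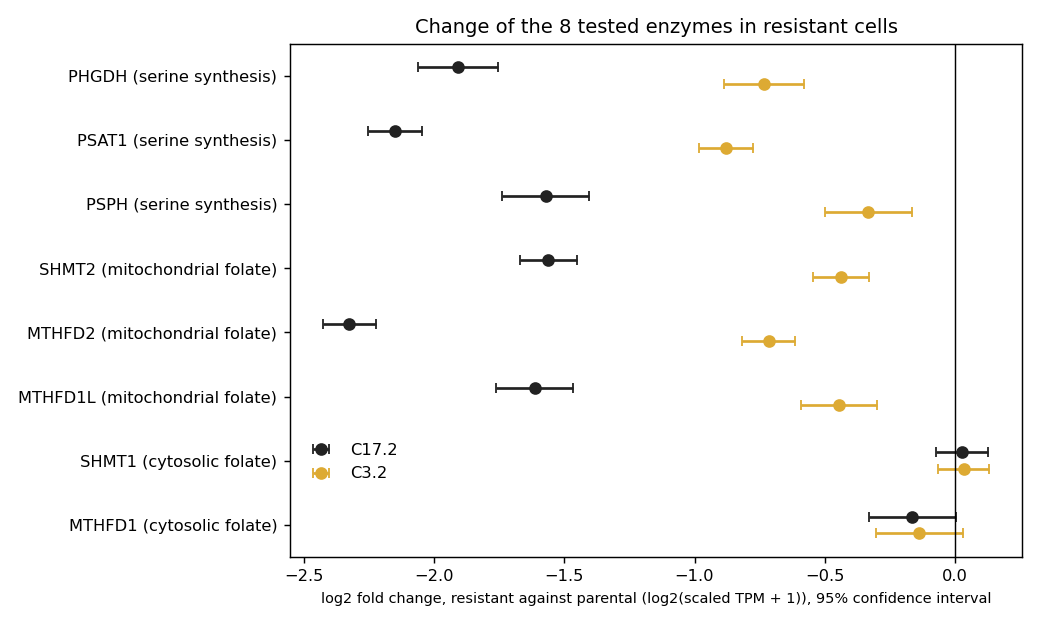
Log2 fold change of the 8 tested enzymes between resistant and parental cells (x axis, on log2(scaled TPM + 1)) in C17.2 (black) and C3.2 (yellow); points are limma estimates from 2 libraries against 2 and bars are 95% confidence intervals. The 6 serine synthesis and mitochondrial enzymes lie between -2.33 and -1.56 in C17.2 and between -0.88 and -0.33 in C3.2, and the intervals of SHMT1 and MTHFD1 include 0, with the sign of MTHFD1 in C17.2 depending on the scaling.

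Whether a mitochondrial enzyme changed more than its cytosolic counterpart was tested pair by pair, by subtracting the log2 value of the counterpart within each library. Such a difference does not depend on the library scaling beyond the pseudocount of 1. The pairs were SHMT2 with SHMT1, and MTHFD2 and MTHFD1L each with MTHFD1, and neither arm was tested as a whole. SHMT2 exceeded SHMT1 in TPM by 6.84 and 6.81 times in parental and by 2.22 and 2.26 times in resistant libraries of C17.2. In C3.2 the ratio was 3.14 and 3.39 in parental and 2.28 and 2.40 in resistant libraries. The mitochondrial enzyme remained the more abundant in all 8 libraries. SHMT2 changed by -1.59 relative to SHMT1 in C17.2 (95% confidence interval -1.72 to -1.46, adjusted p = 1.85e-05 in limma) and by -0.47 in C3.2 (-0.60 to -0.34, adjusted p = 0.00471). Tested in the same way against SHMT1, 25.7% of all genes changed in C17.2 and 10.5% in C3.2.

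The ratio of MTHFD2 to MTHFD1 turned over in C17.2. It was 2.69 and 2.62 in parental libraries, where the mitochondrial RNA was the more abundant, and 0.574 and 0.589 in resistant libraries, where the cytosolic RNA was. The C3.2 ratio was 1.61 and 1.49 in parental and 0.954 and 1.11 in resistant libraries, so the RNAs were about level there after resistance. MTHFD2 changed by -2.16 relative to MTHFD1 in C17.2 (-2.38 to -1.94, adjusted p = 1.68e-05 in limma) and by -0.58 in C3.2 (-0.80 to -0.36, adjusted p = 0.0189). The C3.2 result did not pass without parental replicate 1 (-0.52, adjusted p = 0.115) or without parental replicate 2 (-0.64, adjusted p = 0.0717). Against MTHFD1, 23.5% of all genes changed in C17.2 and 4.86% in C3.2.

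MTHFD1L was the less abundant RNA beside MTHFD1 in every library. The ratio was 0.383 and 0.366 in parental and 0.123 and 0.131 in resistant libraries of C17.2, and 0.348 and 0.316 against 0.262 and 0.264 in C3.2. The groups did not overlap in either clone. The change relative to MTHFD1 was -1.45 in C17.2 (-1.65 to -1.25, adjusted p = 6.05e-05 in limma). In C3.2 it was -0.31 (-0.51 to -0.11) and did not pass (adjusted p = 0.0821). Exact two-sided permutation tests of each ratio gave p = 0.333 in both clones, the smallest that 2 libraries against 2 allow.

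**Figure D3:**
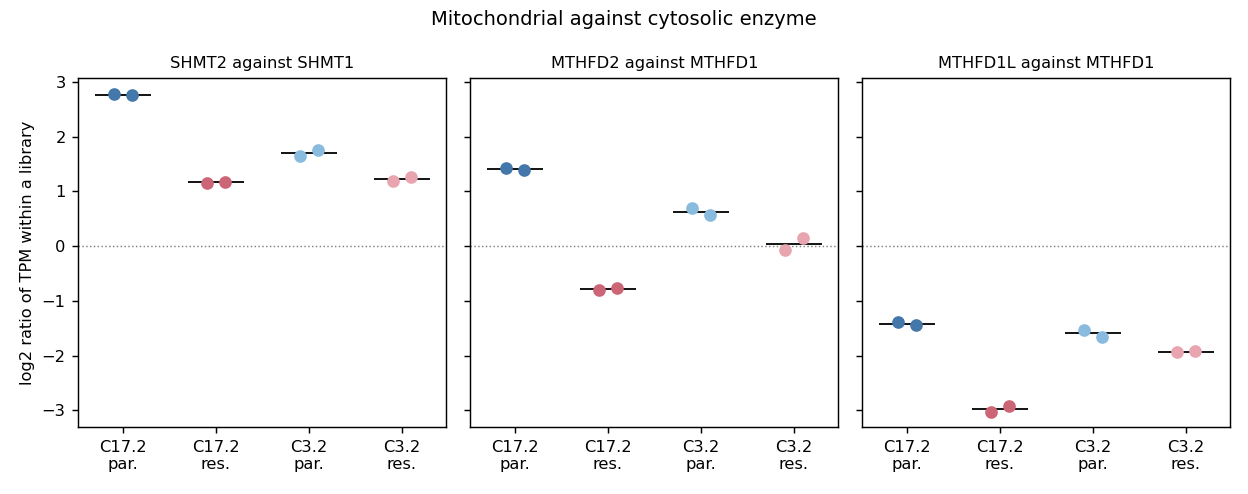
Log2 ratio of the deposited TPM of a mitochondrial enzyme to that of its cytosolic counterpart within a library (y axis, 0 is equal TPM) in parental (par.) and resistant (res.) libraries of C17.2 and C3.2; points are libraries and lines are means of 2. All 3 ratios are lower in resistant than in parental libraries of both clones, and MTHFD2 against MTHFD1 crosses 0 in C17.2, from linear ratios of 2.69 and 2.62 to 0.574 and 0.589.

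The falls were larger in C17.2 than in C3.2. The interaction contrast of the same model, the log2 fold change in C17.2 minus that in C3.2, passed for 6 of the 8 tested enzymes, all lower, beside 9.72% of all tested genes in either direction and 5.19% lower. It was -1.61 for MTHFD2 (standard error 0.0592, adjusted p = 0.000189 in limma), -1.27 for PSAT1 (0.000356), -1.24 for PSPH (0.00168), -1.18 for PHGDH (0.00159), -1.17 for MTHFD1L (0.00141) and -1.12 for SHMT2 (0.000603), with adjusted p in parentheses after the first. For SHMT1 the difference was -0.0061 (95% confidence interval -0.15 to 0.13, adjusted p = 0.963) and for MTHFD1 -0.03 (-0.26 to 0.21, adjusted p = 0.896), with signs that turn on TPM as deposited (0.10 and 0.08). Mitochondrial enzymes relative to their cytosolic counterparts also separated the clones. The difference was -1.12 for SHMT2 relative to SHMT1 (adjusted p = 0.00101 in limma), -1.58 for MTHFD2 (0.00191) and -1.14 for MTHFD1L (0.00373) relative to MTHFD1. In these fits 9.06% of genes differed between clones relative to SHMT1 and 2.93% relative to MTHFD1.

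For 5 of the 6 enzymes that fell, all but MTHFD1L, the clones lay farther apart in parental than in resistant cells. On scaled TPM, parental cells of C17.2 had 2.38 times the PSAT1, 2.18 times the MTHFD2, 2.14 times the SHMT2, 2.10 times the PHGDH, 1.91 times the PSPH and 1.43 times the MTHFD1L of C3.2 parental cells. For SHMT1 that ratio was 1.02 and for MTHFD1 1.27. In resistant cells the ratios were 0.977 for PSAT1, 0.973 for SHMT2 and 0.923 for PHGDH, and further below 1 for PSPH (0.778), MTHFD2 (0.703) and MTHFD1L (0.602). Parental cells of C17.2 thus had the highest group level of all 6 enzymes that fell, followed by C3.2 parental cells. The order of the resistant groups was not settled for PHGDH, PSAT1 and SHMT2, whose resistant libraries were higher in C17.2 than in C3.2 in deposited TPM. On scaled TPM, PHGDH had 74.45 and 68.82 in C17.2 against 74.26 and 81.0 in C3.2, PSAT1 34.79 and 34.43 against 34.55 and 36.31, and SHMT2 54.24 and 55.0 against 54.87 and 57.46, which overlapped for all 3. The sample titles open with numbers from separate series for the clones, whose meaning the labels do not give, so clone and any difference in handling cannot be told apart in these level ratios, which are given without a test.

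The RNA of ATF4 was also lower in resistant cells of both clones, where 14.2% of all tested genes were lower in C17.2 and 6.76% in C3.2. ATF4 had 361.28 and 337 TPM in parental and 197.2 and 198.9 TPM in resistant libraries of C17.2, and 213.81 and 222.3 TPM against 157.8 and 152.66 TPM in C3.2. Its log2 fold change was -0.98 in C17.2 (adjusted p = 3.12e-05 in limma) and -0.55 in C3.2 (adjusted p = 0.000886), and the changes differed by -0.43 (adjusted p = 0.00609, and 0.063 on TPM as deposited). MYC, another known activator of serine and folate enzymes, changed by -0.76 (adjusted p = 0.000408) and -0.29 (adjusted p = 0.0292, a call lost under 12 of 16 alternatives, with adjusted p up to 0.152). Protein of ATF4 and MYC was not measured here, and the part of either in the enzymes' fall was not tested.

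The rest of the pathway did not move as a block. Of 48 other genes of serine and folate metabolism, 40 were tested. In C17.2, 4 were higher, 11 lower and 25 did not pass, and the median log2 change was -0.03, where 27.2% of all tested genes changed and 14.2% were lower. In C3.2, 2 were higher, 8 lower and 30 did not pass, with a median of -0.008, where 11.3% of all tested genes changed and 6.76% were lower. The calls were mostly among genes of serine transport and use, where 7 of 15 tested genes were lower and 1 higher in C17.2, and 5 lower and 1 higher in C3.2. Among genes of folate reduction and use, 1 of 9 was higher in C17.2 and 0 of 9 changed in C3.2. This list holds TYMS, the thymidylate synthase, and MTHFD2L, the mitochondrial paralog of MTHFD2. MTHFD2L lay between 7.7 and 9.69 TPM in all libraries and had log2 fold changes of -0.03 (adjusted p = 0.791 in limma) and 0.12 (adjusted p = 0.265).

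The neutral amino acid exchangers SLC1A4 and SLC1A5, which carry serine, fell beside the synthesis enzymes in C17.2, and SLC1A5 fell in C3.2 as well. SLC1A5 went from 124.74 and 120.49 to 66.16 and 67.9 TPM (log2 fold change -1.03, adjusted p = 3.97e-05 in limma) and SLC1A4 from 25.06 and 23.53 to 9.71 and 12.16 TPM (-1.24, adjusted p = 0.000255). Both groups of libraries were apart for each. In C3.2, SLC1A5 went from 76.77 and 82.08 to 65.89 and 65.16 TPM (-0.34, adjusted p = 0.00673, and 0.0516 without C3.2 parental replicate 2), and SLC1A4 had 9.25 and 9.23 against 8.32 and 8.15 TPM (-0.21, adjusted p = 0.178). The clones differed by -0.69 for SLC1A5 (adjusted p = 0.00202) and by -1.04 for SLC1A4 (adjusted p = 0.00535). SLC38A2, a sodium-coupled neutral amino acid transporter, had one of the 3 largest falls of the other pathway genes in C3.2, from 140.08 and 144.38 to 108.94 and 102.54 TPM (-0.49, adjusted p = 0.00172). It fell in C17.2 too, from 181.84 and 179.91 to 132.87 and 138.04 TPM (-0.58, adjusted p = 0.000256), and the difference between clones of -0.09 (95% confidence interval -0.23 to 0.04) did not pass (adjusted p = 0.344).

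CBS, which joins serine to homocysteine, was low in parental cells and nearly absent from resistant cells. It had 1.64 and 1.76 TPM in parental and 0.04 and 0 TPM in resistant libraries of C17.2 (log2 fold change -1.40, adjusted p = 0.00198 in limma), and 1.72 and 1.18 TPM against 0.14 and 0.26 TPM in C3.2 (-1.09, adjusted p = 0.013). CBS reached 1 TPM in parental libraries only, so it passed the filter through the groups where it was high, which favored a fall. The pseudocount of 1 TPM holds these fold changes down at such levels. SFXN1 and SFXN3 are sideroflexins, and SFXN1 is known to carry serine into mitochondria. SFXN1 went from 37.43 and 38.96 to 30.35 and 29.68 TPM in C3.2 (-0.40, adjusted p = 0.00426) and had 46.5 and 45.99 against 55.83 and 56.58 TPM in C17.2 (0.11, adjusted p = 0.108, and 0.28 with adjusted p = 0.00796 on TPM as deposited), and the clones differed by 0.51 (adjusted p = 0.00571). SFXN3 went from 23.48 and 23.14 to 12.12 and 14.2 TPM in C17.2 (-0.94, adjusted p = 0.000917), and the clones differed by -0.84 (adjusted p = 0.0138).

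Among the 40 other pathway genes tested, 4 were called higher in C17.2 and 2 in C3.2. In C17.2, 4243 of all 15614 tested genes were called, 47.7% of them higher. In C3.2, 1765 were called, 40.2% of them higher. Whether rises were rarer among the pathway genes than among all tested genes was not tested. GLDC is the glycine decarboxylase of the mitochondrial glycine cleavage system. It rose in C17.2 from 22.34 and 19.82 to 32.71 and 33.21 TPM (0.46, adjusted p = 0.0188 in limma). In C3.2 it fell from 22.63 and 20.36 to 18.61 and 14.59 TPM (-0.42, adjusted p = 0.0475). The difference between clones was 0.88 (adjusted p = 0.0167). MTHFS, which returns 5-formyltetrahydrofolate to use, rose in C17.2 from 8.07 and 9.28 to 13.17 and 14.79 TPM (0.47, adjusted p = 0.0204), and SPTLC3, a subunit of serine palmitoyltransferase, from 1.18 and 2.22 to 3.9 and 4.98 TPM (0.89, adjusted p = 0.0231). In C3.2 the serine racemase SRR rose from 4.48 and 4.21 to 7.71 and 6.67 TPM (0.56, adjusted p = 0.0154) and MTRR, which reactivates methionine synthase, from 21.78 and 22.3 to 27.37 and 29.84 TPM (0.30, adjusted p = 0.0465). GGH, which trims polyglutamate from folate, fell in C3.2 from 29.45 and 29.12 to 21.77 and 20.33 TPM (-0.52, adjusted p = 0.00233). In C17.2 it had 25.79 and 23.31 against 23.52 and 24.77 TPM, and its fall on scaled values (-0.18, adjusted p = 0.0295) was lost under 8 of 16 alternatives, with -0.02 (adjusted p = 0.844) on TPM as deposited. The clones differed by 0.34 for GGH (adjusted p = 0.0274). The C3.2 call of GLDC was lost under 13 of 16 alternatives, with adjusted p up to 0.223, without C3.2 parental replicate 1. Leaving out single libraries ended the C17.2 calls of GLDC (adjusted p up to 0.117 in limma, without C17.2 parental replicate 2), MTHFS and SPTLC3 (up to 0.121 and 0.132, without C17.2 resistant replicate 2). It also ended the C3.2 calls of SRR and MTRR (0.0992 and 0.179, without C3.2 parental replicate 2) and of CBS (0.0562, without C3.2 parental replicate 1). The differences between clones were likewise lost for GLDC and SFXN3 (0.0828 and 0.076, without C17.2 parental replicate 2) and for GGH (0.0927, without C3.2 parental replicate 1).

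**Figure D4:**
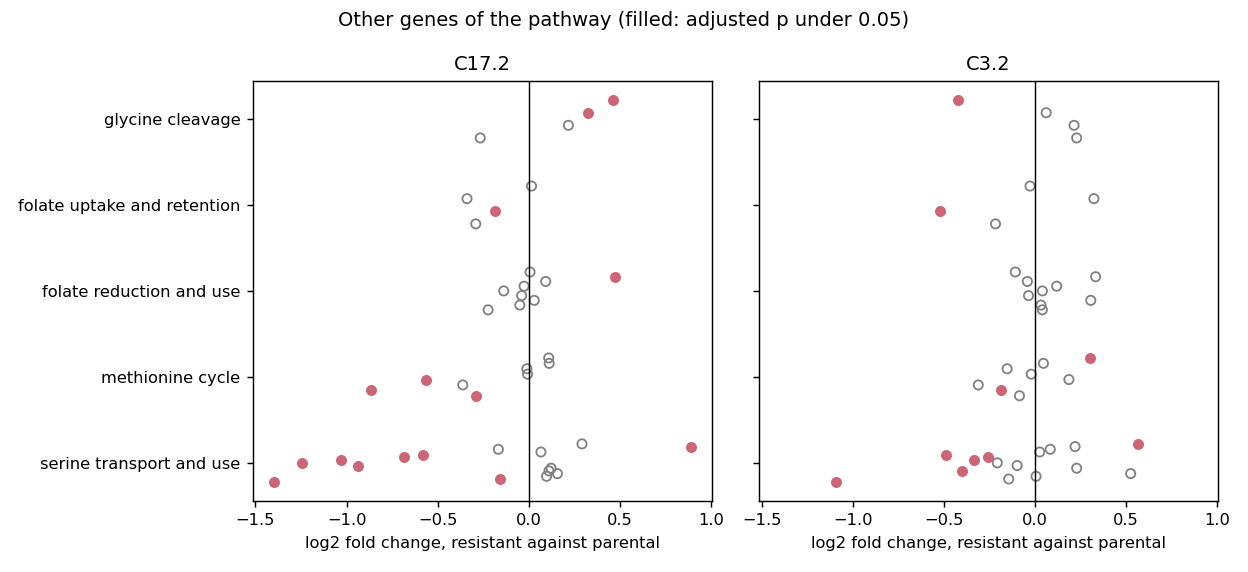
Log2 fold change between resistant and parental cells (x axis, on log2(scaled TPM + 1), same range in both panels) of the 40 tested genes in 5 lists of other serine and folate genes (y axis), in C17.2 and C3.2; each circle is a gene, filled where it passed an adjusted p of 0.05. Filled circles to the left are mostly genes of serine transport and use, and most genes of folate reduction and use lie near 0. The lowest in C17.2 is CBS at -1.40, which passed the filter only through parental libraries.

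Genes with profiles most like those of PHGDH and SHMT2 were found by the Euclidean distance between centred log2 profiles over the 8 libraries, among 11209 genes. Nearest to PHGDH were TLR10 (distance 0.337), its pathway neighbor PSAT1 (0.348), CTH (0.352), ENSG00000131149.19 (0.376) and NHSL1 (0.385). Nearest to SHMT2 were P2RX7 (0.238), the seryl-tRNA synthetase SARS (0.245), CTH (0.264), PCK2 (0.265) and EDEM1 (0.319). CTH, which makes cysteine from the cystathionine that CBS forms, was in both lists. The 8 libraries form 4 groups that differ in clone and state, and a short distance describes only this pattern.

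Reads of near-identical copies and of overlapping genes could enter these values. The table lists 14 pseudogenes named for the 9 enzymes, of which 7 were at 0 in all libraries and the highest reached 0.63 TPM. No gene overlaps PHGDH, PSAT1 or PSPH in the annotation. SHMT2 overlaps NDUFA4L2 on the opposite strand (0.05 to 5.23 TPM), SHMT1 overlaps SMCR8 (5.9 to 7.29 TPM), MTHFD1 overlaps ZBTB25 (7.07 to 9.51 TPM) and MTHFD2 overlaps SLC4A5 (0.75 to 1.47 TPM). These neighbors were all below the enzymes they overlap. MTHFD1L holds the small nuclear RNA pseudogene RNU6-302P on its own strand (0 to 11.22 TPM), and ALDH1L2 overlaps WASHC4 on the opposite strand (27.48 to 38.0 TPM), far above its own level. The strand setting of the quantification is not given in the sources used here, so reads of such partners cannot be told apart.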

How the data were processed

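RNA-seq of 8 libraries (2 in each of 4 groups, labeled by clone and state) was analyzed. The authors depleted ribosomal RNA, trimmed reads with Trim Galore 0.6.3, aligned them with STAR 2.7.9a to hg38 and estimated gene levels by RSEM 1.3.1 with Gencode 31. The deposited values are TPM, which keep no depth, so depth and counting error are unknown. The methods describe paired-end and the labels single-end reads.

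Genes were tested if any library reached a TPM of 1. A trimmed mean of log2 ratios, which left out 30% of the ratios and 5% of the means at each end, scaled the libraries (factors 0.898 to 1.15). The log2 values, with a pseudocount of 1, entered limma 3.58.1 in R 4.3.3, with an intensity trend and all 4 groups in 1 model, two-sided, and Benjamini-Hochberg adjustment. Enzyme differences were fitted in the same way, with the counterpart's log2 value subtracted from every gene. The scripts were tested on simulated data. Replicate libraries had Pearson's r between 0.968 and 0.979 across genes. The study fitted limma-voom, for which counts are needed, so it could not be repeated from TPM.

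The enzymes and lists were chosen with earlier results of these data known. Text names all members, and from the other lists the 3 largest rises and falls past the threshold in each contrast, with ALDH1L1 and MTHFD2L. Some genes of these lists are not reported here. Positions came from Gencode release 44 and sequences from RefSeq. Alternatives covered scaling, pseudocount, filters, model and left-out libraries. Python 3.11.15, pandas 2.3.3 and matplotlib 3.10.9 made tables and plots.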

Additional observations from a re-analysis of the deposited data

Results flagged for a closer look

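Each value here is the log2 fold change in C17.2 minus that in C3.2, and each passed the interaction test in limma with Benjamini-Hochberg adjustment. Among the enzymes it was -1.18 for PHGDH, -1.27 for PSAT1, -1.24 for PSPH, -1.12 for SHMT2, -1.61 for MTHFD2 and -1.17 for MTHFD1L. The estimates for these 6 were lower in resistant cells of both clones, so they differed in size and not in direction. In C3.2 the call of PSPH was lost under 13 of 16 alternatives, and fitting C3.2 alone left only PSAT1 and MTHFD2 called. Relative to the cytosolic counterpart the difference between clones was -1.12 for SHMT2 against SHMT1, -1.58 for MTHFD2 against MTHFD1 and -1.14 for MTHFD1L against MTHFD1. Among the other pathway genes it was -1.04 for SLC1A4, -0.69 for SLC1A5, -0.84 for SFXN3, 0.34 for GGH, 0.51 for SFXN1 and 0.88 for GLDC. GLDC was called higher in C17.2 and lower in C3.2, calls lost under 4 and 13 of 16 alternatives. The difference itself was lost under 5 of 15 for GLDC, 8 of 15 for GGH and 4 of 15 for SFXN3. Clone and any difference in handling between the clones cannot be told apart in levels. Each fold change lies within a clone. In the difference between fold changes, handling that met parental and resistant cells unequally cannot be told apart from clone either. Outliers within a group were not sought, because each group has 2 libraries.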

How the results depend on the processing

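Of 1316 recomputed values, 1179 kept their call or their lack of one, 113 lost a call, 7 gained one, 17 counts moved by over 1.5 times and 0 called values reversed. The signs of MTHFD1 and MTHFD2L in C17.2, neither of which passed, turned on TPM as deposited. All 6 calls in C17.2 and all 6 in the difference between clones were kept under every alternative. Fitting C3.2 alone left 2 enzymes called (PSAT1 and MTHFD2) of 6, and 74 genes in place of 1765, with SHMT2 against SHMT1 at -0.47 (adjusted p = 0.0584 in limma) and MTHFD2 against MTHFD1 at -0.58 (adjusted p = 0.06). That fit has fewer samples. With no filter on low values, 1155 genes were called in C3.2. Leaving out 1 library at a time gave 2395 to 4542 genes in C17.2, 322 to 1768 in C3.2 (lowest without C3.2 parental replicate 1), 544 to 1733 for the difference, 4 to 5 enzymes in C3.2, and -0.69 to -0.47 for MTHFD2 against MTHFD1 there. On TPM as deposited the median of all genes moved to 0.13 in C17.2, and 75.1% of its calls were higher in place of 47.7% (57.8% in place of 40.2% in C3.2, and 70.2% with protein-coding genes as the total). PSPH in C3.2 was then -0.27 (adjusted p = 0.135). No paired analysis was possible because the labels give the libraries no shared replicate numbers. TPM hide the depth, so limits for low genes such as ALDH1L2 cannot be given.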
